A study of Mus musculus with 2 samples.

Results

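The enzymes that write and remove histone methylation, and the classical histone deacetylases, were examined for accessible chromatin in activated regulatory T cells. The set was every protein-coding gene of the GENCODE M21 annotation whose symbol starts with Kdm, Kmt, Setd or Hdac, together with Ezh1, Ezh2, Suv39h1, Suv39h2, Ehmt1, Ehmt2, Dot1l and Nsd1. It held 55 genes of the 21938 protein-coding genes. The rule reads gene names and no measured value, but the set was chosen with earlier results of these data known.

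Accessible chromatin had been profiled by ATAC-seq, in which a transposase inserts sequencing adapters where DNA is not packed away. The cells were activated regulatory T cells from adult male mice of the strain Foxp3CreERT2 x Rosa26YFP, aged 4 months. In such animals Foxp3, the lineage factor of regulatory T cells, drives a tamoxifen-dependent Cre recombinase, and Cre activity switches on a yellow fluorescent protein from Rosa26. Both libraries are technical replicates of 1 biological replicate, so there is 1 group with no control, no animal-to-animal spread and no comparison between conditions. How the cells were activated and whether tamoxifen was given are not stated in the labels, nor is the number of animals. The labels describe the material as primary cells of bone marrow haematopoietic origin.

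The deposited peak lists cover both libraries together. The values below come from the list past an irreproducible discovery rate (IDR, the estimated chance that a peak does not repeat between the inputs) of 0.05, whose overlapping peaks were merged into 26090 regions on mm10. Signal is the enrichment value that the authors' peak caller wrote for each peak. It has no unit and no replicate error, and a region takes the value of its strongest peak. Strong, weak and like words below rank regions by this signal alone. The -log10 p that the caller also wrote orders some of them otherwise. A region open in some of the cells and a region weakly open in all of them cannot be told apart in such pooled material. The read depth is unknown.

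Marker genes were used to check the label. All 7 regulatory T cell markers had at least 1 assigned region and held 47 in total, with 14 at Ctla4 and 9 at Tigit. A promoter region was present at 5 of 7, Foxp3 and Il2ra among them. The 2 promoter regions of Foxp3 were not assigned to it under the rule given below, and its 1 assigned region was distal. Of 5 T cell markers, 4 had a promoter region, and Cd4 had none. No region was assigned to Cd8a, Ms4a1, Cd14, Csf1r, Lyz2, Cd68, Ncr1 or Klrk1, which mark CD8 T cells, B cells, myeloid cells and NK cells, while the myeloid gene Itgam had 1, a distal region. Promoter regions were present at Cd8b1, at the B cell genes Pax5 and Ebf1 and at the erythroid genes Gata1 and Klf1, with signals from 10.03 to 14.6, and all of these were absent from the list at an IDR of 0.01 or below. Pax5 and Ebf1 also had 1 distal region each, and 2 regions of the B cell list and that of Itgam remained at the stricter IDR. The part of other cells in the regions described below was not tested.

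Histone methyltransferases transfer methyl groups to lysines, mostly through a SET domain, and the lysine decides which protein reads the mark. Methylation of H3K4 accompanies active promoters and enhancers, that of H3K36 and H3K79 accompanies transcribed gene bodies, and that of H3K9 and H3K27 accompanies silent chromatin. Demethylases of the amine oxidase and Jumonji classes reverse these marks, and deacetylases remove the acetyl groups that accompany active chromatin. In regulatory T cells, Ezh2, the catalytic subunit of Polycomb repressive complex 2 (PRC2), is known to help keep the Foxp3-dependent programme after activation, and both deacetylase inhibitors and loss of Hdac9 are known to enhance suppression by these cells in mice.

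The sequences under the strongest summits show the DNA that these regions centre on. Each is the plus strand of GRCm38, the assembly of mm10, read from the RefSeq copy, with the summit in the middle. Letters in capitals match a fixed word on either strand, and the words are named where their counts are given. The first set shows the strongest distal regions of the genes with the most distal regions, and ends with the region near Nsd1, added after the values were seen because its signal was the highest of all 62 distal regions.
Hdac4 intron, chr1:92058852-92058952: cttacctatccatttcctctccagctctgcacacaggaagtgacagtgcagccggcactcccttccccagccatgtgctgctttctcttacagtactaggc
Hdac4 intron, second, chr1:92064478-92064578: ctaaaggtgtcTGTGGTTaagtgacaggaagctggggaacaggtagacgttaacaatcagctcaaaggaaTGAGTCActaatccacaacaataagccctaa
Kdm7a upstream, chr6:39241716-39241816: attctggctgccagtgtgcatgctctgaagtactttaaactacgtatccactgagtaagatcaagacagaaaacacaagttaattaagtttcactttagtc
Kmt2e upstream, chr5:23387040-23387140: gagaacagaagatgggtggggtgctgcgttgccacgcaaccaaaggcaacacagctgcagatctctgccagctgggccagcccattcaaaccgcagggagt
Setd4 downstream, chr16:93543859-93543959: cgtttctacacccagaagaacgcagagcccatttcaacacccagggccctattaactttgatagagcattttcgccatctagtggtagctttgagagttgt
Hdac7 upstream, chr15:97849546-97849646: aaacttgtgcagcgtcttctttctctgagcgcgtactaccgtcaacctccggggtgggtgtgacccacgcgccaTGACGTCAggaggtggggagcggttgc
Kdm6b intron, chr11:69401386-69401486: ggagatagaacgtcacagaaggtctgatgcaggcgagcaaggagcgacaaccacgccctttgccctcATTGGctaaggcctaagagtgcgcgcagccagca
Nsd1 upstream, chr13:55190378-55190478: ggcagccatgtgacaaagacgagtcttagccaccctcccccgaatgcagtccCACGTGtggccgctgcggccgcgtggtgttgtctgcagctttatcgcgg

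The next set shows the promoter summits with the highest signal among windows that touch no annotated untranslated region, followed by that of Kmt2c, added after the values were seen because its signal was the lowest of the set.
Kdm4b promoter, chr17:56325744-56325844: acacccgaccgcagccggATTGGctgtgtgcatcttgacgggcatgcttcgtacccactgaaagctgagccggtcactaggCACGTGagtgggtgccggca
Kmt5a promoter, chr5:124439761-124439861: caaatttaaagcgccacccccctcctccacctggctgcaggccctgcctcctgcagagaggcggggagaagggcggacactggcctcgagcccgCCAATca
Kdm4a promoter, chr4:118180056-118180156: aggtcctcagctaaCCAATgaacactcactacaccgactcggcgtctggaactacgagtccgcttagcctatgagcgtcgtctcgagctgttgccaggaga
Kdm5c promoter, chrX:152232819-152232919: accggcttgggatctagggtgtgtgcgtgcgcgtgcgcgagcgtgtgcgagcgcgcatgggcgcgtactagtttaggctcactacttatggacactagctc
Kmt2c promoter, chr5:25499583-25499683: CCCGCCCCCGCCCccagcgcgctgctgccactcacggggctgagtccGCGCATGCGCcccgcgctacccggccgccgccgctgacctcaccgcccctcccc

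Nearly all of the enzyme genes had accessible promoters. A promoter region, defined as a region within 1000 bp of any annotated transcription start site (TSS), was present at 52 of 55 genes (94.5%, Wilson 95% interval 85.1 to 98.1, which covers counting only), against 49.1% of all protein-coding genes. Most of the set has CpG-rich 5' ends, here meaning at least 50% GC and an observed-to-expected CpG ratio of at least 0.6 over 501 bases. Among genes with such ends, 43 of 44 enzyme genes had a promoter region, against 78.0% of all CpG-rich genes. In the more permissive pseudoreplicated list the count was 53 of 55, against 55.7% of all genes, and at an IDR of 0.01 or below it was 49, without those of Hdac11, Kmt2d and Nsd1.

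The 3 genes without a promoter region were Hdac9, Kdm5b and Kdm6b. Of the others, 38 had 1 promoter region, 13 had 2, and Kdm2a, a demethylase of H3K36, had 3. Promoter regions were shared with another protein-coding gene at 6 of these 52 genes (11.5%), against 25.1% of all genes with a promoter region. The pairs were Hdac3 with Rell2, Kdm1b with Tpmt, Kdm4d with Cwc15, Kdm5a with Ccdc77, Setd3 with Ccnk and Setdb2 with Cab39l, and for these a region cannot be given to either gene alone.

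Regions away from promoters were unevenly spread over the genes of the set. Each region was assigned to the protein-coding gene whose TSS lay nearest to its strongest summit, within 100 kb. On that rule 54 of 55 genes had at least 1 region, against 53.1% of all genes, and 25 of 55 had a distal region, one over 1000 bp from every protein-coding TSS, against 27.6%. Among genes with CpG-rich ends the shares with a distal region were closer, 17 of 44 (38.6%) against 34.8%. The 55 genes held 127 regions, 65 at promoters and 62 distal. The median was 2 per gene against 1 over all genes. It was 1 both for the 44 CpG-rich enzyme genes and for all CpG-rich genes. A single region was assigned to 25 of the 55 genes. Another 11, with 4 or more (20%, against 7.48% of all genes), held 60 of the regions and 44 of the distal ones. The matching share of regions was not computed over all genes, nor was the share with 4 or more among CpG-rich genes. Over all 55 genes, the sequence nearest to their TSSs had a median of 79.8 kb, against 45.0 kb over all genes. Per 100 kb of that sequence the median was 3.36 regions, against 2.30 for CpG-rich genes and 0.73 for all genes. This rate, here and below, counts promoter regions as well as distal ones, so it is not a density of distal regions.

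**Figure D1:**
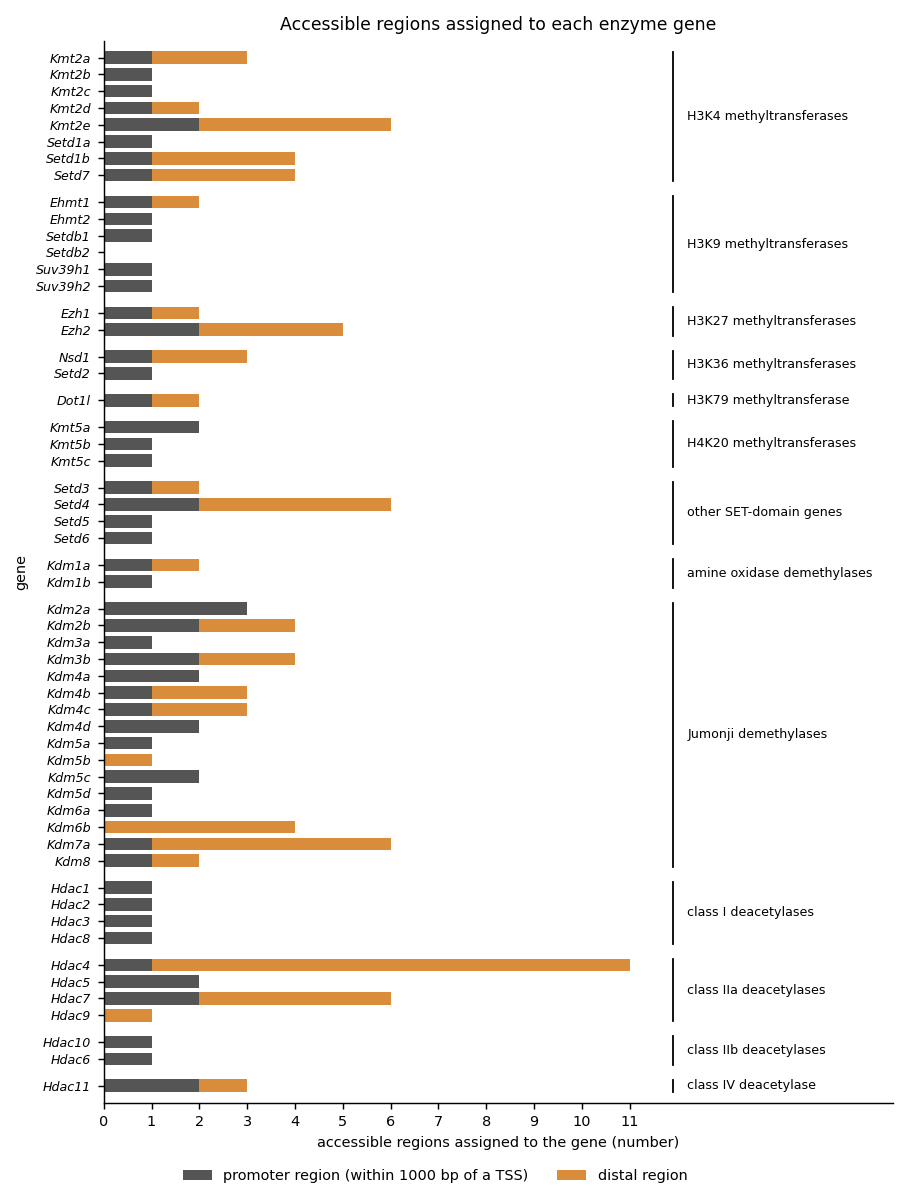
Number of assigned accessible regions (x axis) for each of the 55 genes (y axis), grouped by role, with promoter regions in grey and distal regions in orange. Hdac4 reaches 11 regions, the 4 class I deacetylases have 1 each, and Setdb2 has none because its promoter region lies nearer to the start of Cab39l.

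The plot of regions per gene shows distal counts that vary both between and within roles. All 4 class I deacetylases, all 3 H4K20 methyltransferases and both class IIb deacetylases had no distal region, while the 4 class IIa deacetylases held 15 and the 16 Jumonji demethylases 19. The 8 H3K4 methyltransferases held 13, and the 6 H3K9 methyltransferases held 1, at Ehmt1. Within class IIa, Hdac4 had 10, Hdac7 4, Hdac9 1 and Hdac5 none, and 8 of the 16 Jumonji genes had none. The counts depend on the list. In the pseudoreplicated list, class I, H4K20 and class IIb genes held 4, 1 and 0 distal regions, and class IIa and Jumonji genes 39 each. Differences between roles were not tested.

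H3K4 methyltransferases had promoter regions of mostly low signal. All 8 had a promoter region, and the median signal of the strongest one per gene was 8.96, against 16.6 over all genes with a promoter region (quartiles 12.7 and 20.5) and 15.8 over the 52 enzyme genes. Kmt2c and Kmt2d, which lay down monomethylation of H3K4 at enhancers, had signals of 7.16 and 8.66. Kmt2a, which acts at promoters of developmental genes, had 8.57, and its close relative Kmt2b had 13.2. These values place 3 of the 4 near the bottom of the scale, at percentiles 2.4, 6.0 and 5.7 of all genes with a promoter region for Kmt2c, Kmt2d and Kmt2a. The summits of the strongest promoter regions of Kmt2c, Kmt2d and Kmt2e lay 850, 791 and 1045 bp upstream of the nearest TSS of the gene, against 127 bp at Kmt2a. These distances hold on GENCODE starts. RefSeq, an annotation added after the data were seen, places a start inside the Kmt2e region, at position 23433036 of chromosome 5. For Kmt2d it places a start at 98871608 of chromosome 15, nearer to the summit. With a promoter window of 500 bp on GENCODE starts, Kmt2d and Setd1b have no promoter region.

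Weak signal went with both narrow and wide regions in this group. Of the 6 promoters under the lower quartile of signal, those of Kmt2a, Kmt2d and Setd1b were 567, 646 and 475 bp wide, under the lower quartile of width over all genes, 688 bp. Those of Kmt2c, Setd7 and Kmt2e were over the upper quartile, 1070 bp. The Kmt2c region was 1096 bp wide with 4 summits, and that of Setd7, which places a single methyl group on H3K4 and also modifies other proteins, was 1694 bp wide with 5 summits at a signal of 7.31. Setd1a, a catalytic subunit of the complex that makes most H3K4 trimethylation, stood apart with a signal of 19.8, while its paralogue Setd1b had 10.3. Across the 52 enzyme genes the Spearman correlation of promoter signal and width was -0.06. Over the 10774 genes with a promoter region it was -0.02 (a description across genes of 1 pooled sample). The correlation of signal with the caller's -log10 p was 0.60 in the enzyme genes and 0.70 over all. By that -log10 p Kmt2e, at 221.3, lay over the median of all genes with a promoter region, 150.9.

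Distal regions lay at 5 of the 8 H3K4 methyltransferases (62.5%, Wilson interval 30.6 to 86.3). The shares were 27.6% of all genes and 34.8% of CpG-rich genes. All 8 have CpG-rich ends, and the interval covers the CpG-rich share, so no difference from such genes is shown. Kmt2e, a SET-domain protein with little methyltransferase activity of its own, had 6 regions, of which 4 were distal. The strongest lay 47351 bp upstream (chr5:23386433-23387402, signal 18.3) and the next 15846 bp upstream (signal 16.9), both stronger than its promoter regions at 9.26 and 4.30. Setd1b had 3 distal regions close together in its own gene body, 7682 to 9055 bp from its 5' end, with signals of 6.43, 9.67 and 11.5. Setd7 had 3 intronic ones between 6644 and 20836 bp from its 5' end, with signals from 8.55 to 11.1. Kmt2a had 2 in introns, 2020 and 7457 bp inside the gene, and Kmt2d had 1.

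H3K9 methyltransferases had promoters within the quartiles of all genes, with signals from 15.8 to 20.2. A distal region was assigned to 1 of the 6 (16.7%, Wilson 95% interval 3.01 to 56.4), against 27.6% of all genes, and the median sequence nearest to their TSSs was 36.9 kb. The euchromatic enzymes Ehmt1 and Ehmt2, which form a heterodimer, had 15.8 and 16.8, and Setdb1, which silences retroelements, had 15.8. Suv39h1 and Suv39h2, the enzymes of pericentromeric heterochromatin, had 19.1 and 16.3. The single distal region of the group lay in an intron of Ehmt1, 88793 bp from its 5' end, with a signal of 16.2. Ehmt2 owes its promoter region to an internal TSS: the region lies 13776 bp inside the gene, its summit is 1270 bp from that TSS, and only its edge comes within 1000 bp. That promoter call is lost with a window of 500 bp, with 1 TSS per gene and on RefSeq TSSs.

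Setdb2, related to Setdb1, was the gene with no assigned region. Its shared promoter region, chr14:59440371-59441335, was among the strongest of the set at 20.2. The summit lay 63 bp upstream of Setdb2 and nearer still to Cab39l.

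The H3K27 methyltransferases had promoter signals within the quartiles of all genes, and Ezh2 had distant regions upstream. Signals of the strongest promoter region were 18.8 for Ezh2 and 18.1 for Ezh1, its paralogue with weaker activity. The Ezh2 promoter region was 1413 bp wide with 4 summits. Upstream lay 3 distal regions in intergenic sequence, 25870, 41288 and 55594 bp from the nearest Ezh2 TSS, with nearly equal signals of 16.7, 16.6 and 16.8. At chr6:47621002-47621548, chr6:47636101-47637264 and chr6:47650561-47651658, they exceeded the median signal of all distal regions, 12.6. A second promoter region lay 62607 bp inside the gene, close to its 3' end, where a further TSS is annotated.

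Other methyltransferases differed widely in promoter signal. Nsd1, which dimethylates H3K36, had 8.25 at its promoter, but the region 19354 bp upstream, chr13:55189932-55190716, reached 28.4 in intergenic sequence. Setd2, which trimethylates H3K36, had a single region, at its promoter, with 17.1. Dot1l, the H3K79 methyltransferase, had 10.5 at its promoter and 7.96 at a region 3505 bp upstream. Kmt5a, which monomethylates H4K20 in the cell cycle, had 21.5 at chr5:124439549-124440377, against 14.7 and 14.3 for Kmt5b and Kmt5c, which add further methyl groups.

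Among the SET-domain genes of other or unsettled activity, Setd4 carried 6 regions. Its 4 distal regions lay beyond the 3' end of the gene, 29361 to 60154 bp from the 5' end, in intergenic sequence, with signals of 12.7, 6.79, 15.4 and 19.4. The Setd4 TSS nearest to these was a GENCODE start near its 3' end, at position 93584008 of chromosome 16. The RefSeq starts of Setd4 lie at position 93599281 or higher, nearer its 5' end. Setd3, which methylates a histidine of actin, had 15.4 at the promoter it shares with Ccnk. Setd6, which methylates the NF-kappaB subunit RelA, had 14.4, and Setd5 had 10.9 over a region 1526 bp wide.

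**Figure D2:**
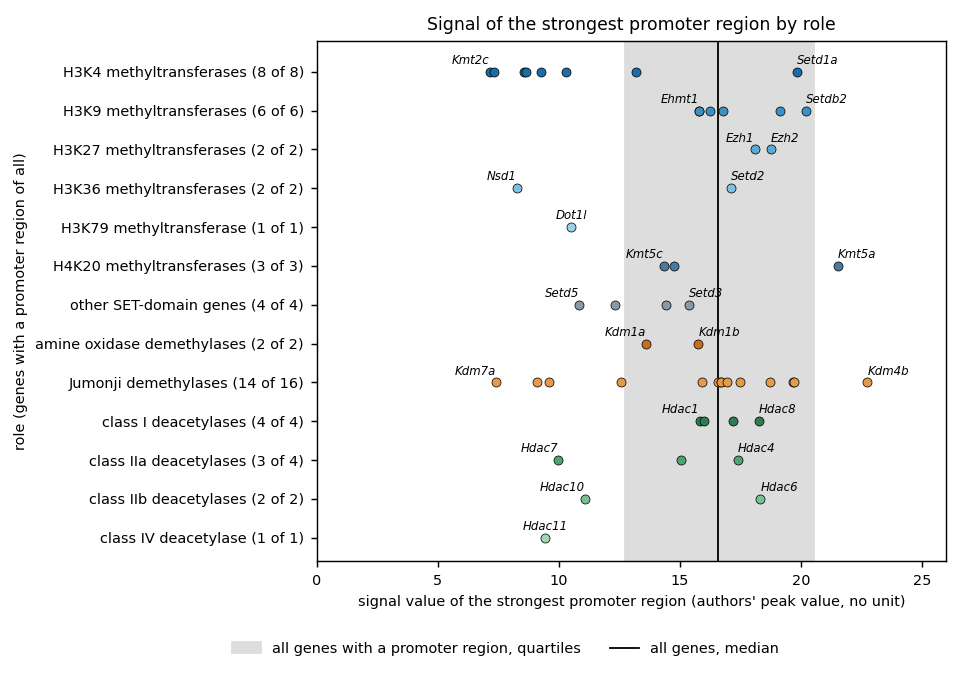
Signal of the strongest promoter region (x axis, the authors' peak value) for each gene with one, by role (y axis, with the number of genes), where a point is a gene, the grey band spans the quartiles of all 10774 genes with a promoter region and the line is their median. The H3K4 methyltransferases have 6 of 8 points left of the band, and Kdm4b and Kmt5a lie right of it at 22.7 and 21.5.

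The plot of promoter signal by role shows more genes at the low end than at the high end. Signals under the lower quartile of all genes were found at 17 of the 52 enzyme genes (32.7%, against 25% by definition), and signals over the upper quartile at 2 (3.85%). The 17 were 6 H3K4 methyltransferases, 4 Jumonji demethylases, 2 other SET-domain genes and Nsd1, Dot1l, Hdac7, Hdac10 and Hdac11. Base composition at the summit, over 201 bases, was 66.2% GC in the median both for these 17 and for the rest of the set. Over all genes the corresponding medians were 65.2% under the lower quartile and 63.2% above it. The H3K4 methyltransferases had a median of 69.9%.

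Jumonji demethylases spanned the whole range. Kdm4b, which removes trimethylation from H3K9 and H3K36, had the strongest promoter of the set, 22.7 at chr17:56325473-56326134 in a region of 662 bp with 1 summit. The related Kdm4a had 19.7 and Kdm4c 18.7, and Kdm4d had 9.12 at a promoter it shares with Cwc15. The weakest of the class was Kdm7a, a demethylase of H3K9 and H3K27, at 7.39. Kdm5c and Kdm5a, which demethylate H3K4 trimethylation, had 19.7 and 16.6, and Kdm5d, their relative on the Y chromosome, had 12.6. Kdm6a, an H3K27 demethylase on the X chromosome, had 17.0 and no distal region, though it had 4 in the pseudoreplicated list.

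Kdm7a, weak at its promoter, had stronger regions upstream. Of its 5 distal regions, 4 lay between 34977 and 68561 bp upstream in intergenic sequence, with signals of 20.2, 7.25, 9.07 and 18.1 in order of distance, and the fifth lay 1349 bp inside the gene with 8.16. The 2 strongest, at chr6:39241051-39241975 and chr6:39275154-39275901, exceeded the median signal of all distal regions, 12.6. Kdm8, a Jumonji hydroxylase, also had a region stronger than its promoter, with 23.0 at 21514 bp upstream (chr7:125422989-125423700). Its promoter was not weak, at 16.7 (percentile 50.7 of all genes with a promoter region). The caller's -log10 p was 130.3 at the upstream Kdm8 region and 134.1 at its promoter. At Kdm7a it was 182.8 and 68.4 at the 2 strongest upstream regions and 69.9 at the promoter.

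In several members of the class, promoter regions lay at TSSs annotated inside the gene. Kdm2b, which binds unmethylated CpG islands and recruits a Polycomb complex, had its stronger promoter region, 17.5, at a TSS 89359 bp inside the gene, and 9.30 at its 5' end. The -log10 p of these Kdm2b regions ran the other way, 87.6 inside the gene and 121.4 at the 5' end. In Kdm2a the strongest of 3 promoter regions, 16.7, lay 64336 bp inside the gene, against 11.1 near the 5' end. Kdm4c had its promoter region, 1509 bp wide with 6 summits, 9325 bp inside. Kdm3b, a demethylase of H3K9, had 2 promoter regions of 9.57 and 5.19 and 2 intronic regions 2407 and 6609 bp from its 5' end.

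Kdm6b, the inducible H3K27 demethylase, had no promoter region on the GENCODE starts but 4 regions inside the gene. They lay 2812, 4004, 4955 and 12239 bp from the annotated 5' end with signals of 7.63, 6.62, 9.36 and 13.3, the last at chr11:69401258-69401722. No region within 1000 bp of a GENCODE TSS appeared in the pseudoreplicated list either. RefSeq, added as an annotation after the data were seen, places further starts at positions 69410897 and 69409629 of chromosome 11, inside 2 of these regions, and on RefSeq starts Kdm6b has a promoter region.

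Kdm5b, another H3K4 demethylase, had 1 region, 3070 bp upstream of its TSS, 1026 bp wide with 4 summits and a signal of 13.5. A region over the TSS itself was present in the pseudoreplicated list, 684 bp wide with a signal of 4.87. The absence of a Kdm5b promoter region thus depends on the list.

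The amine oxidase demethylases were intermediate. Kdm1a, also known as LSD1, which removes mono- and dimethylation of H3K4, had 13.6 at its promoter and 11.8 at an intronic region 32481 bp from the 5' end. Kdm1b had 15.8 at the promoter it shares with Tpmt and no distal region.

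**Figure D3:**
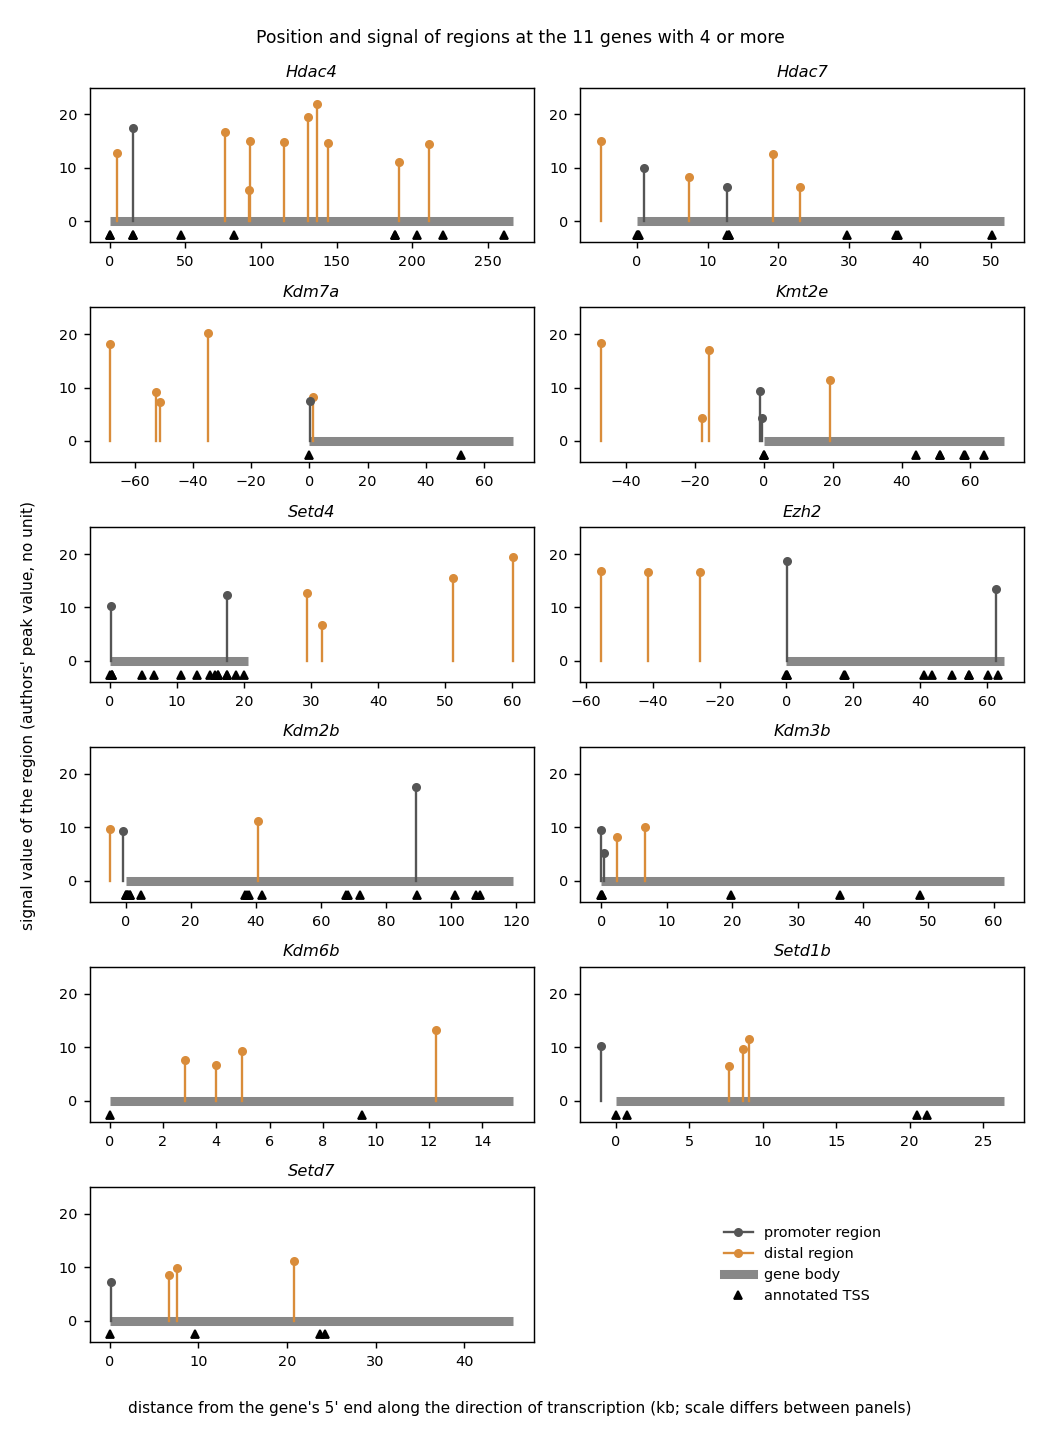
Position (x axis, kb from the gene's 5' end along the direction of transcription, with a scale of its own in each panel) and signal (y axis, the authors' peak value) of the assigned regions of the 11 genes with 4 or more. Grey stems are promoter regions, orange stems distal regions, the bar is the gene body and triangles are annotated TSSs. Regions of Hdac4 all lie inside the gene, those of Kdm7a and Ezh2 reach 68561 and 55594 bp upstream, and the 4 distal regions of Setd4 lie beyond its 3' end.

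Hdac4, a class IIa deacetylase that shuttles between cytoplasm and nucleus and binds MEF2 factors, had 11 regions, which ranked 87 among all genes. All 11 lay inside its gene body of 266.9 kb. The promoter region, at an internal TSS 15152 bp from the 5' end, had a signal of 17.4. The 10 distal regions ran from 5015 to 210975 bp along the gene with signals from 5.76 to 21.9, and 8 of them lay in introns, 1 in a coding exon and 1 in an exon of a noncoding transcript. The 2 strongest lay within 6 kb of each other, 21.9 at chr1:92058728-92059157 and 19.4 at chr1:92064250-92064770, about the middle of the gene. Hdac4 also has the largest share of sequence to itself among these 11 genes, 427.5 kb, so its rate of 2.57 regions per 100 kb was under the median of the set.

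The other class IIa genes differed from Hdac4 and from each other. Hdac7, the class IIa enzyme of developing T cells, had 6 regions in 62.6 kb, or 9.58 per 100 kb, with 9.97 and 6.33 at its promoters and the strongest, 14.9, in intergenic sequence 5094 bp upstream (chr15:97849160-97849941). By -log10 p an intronic Hdac7 region led, with 185.0 against 81.0 at the upstream one. Hdac5 had 2 promoter regions, of 15.1 and 14.2, and no distal region (1 in the pseudoreplicated list). Hdac9, whose gene spans 869.5 kb, had 1 region, in an intron 252139 bp from the 5' end (chr12:34664823-34665261), with a signal of 15.5. That region was absent from the list at an IDR of 0.01 or below. A second region inside the gene was not assigned to it by the rule above. No region lay within 1000 bp of its 7 annotated TSSs in either list, and the other 7 regions assigned to Hdac9 in the pseudoreplicated list had signals of 4.05 to 8.88.

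Class I deacetylases, the catalytic subunits of the main corepressor complexes, each had 1 promoter region of middling signal and no distal region (4 over the class in the pseudoreplicated list). Hdac1 and Hdac2, which serve Sin3, NuRD and CoREST complexes, had 15.8 and 16.0. Hdac3, the subunit of NCoR complexes, had 17.2 and Hdac8 had 18.3. All 4 values lay within the quartiles of all genes. The Hdac2 region was 1437 bp wide with 5 summits. In class IIb, the tubulin deacetylase Hdac6 had 18.3 and the polyamine deacetylase Hdac10 had 11.1. Hdac11, the class IV enzyme, had 9.45 and 9.14 at 2 promoter regions, and 12.9 at a distal region 2935 bp upstream.

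The 62 distal regions had signals like those of distal regions elsewhere and lay closer to a TSS. Their median signal was 12.1 (range 4.21 to 28.4) against 12.6 for all 13372 assigned distal regions, and the median width was 568 bp against 524 bp. The median distance from the summit to the nearest TSS of the gene was 7879 bp against 13778 bp. By location, 36 lay in introns of the gene itself, 22 in intergenic sequence, 2 in exons of noncoding transcripts, 1 in a coding exon and 1 in an untranslated region, and none in another gene. The summits nearest to the promoter limit lay 1288 bp (Kdm2b) and 1349 bp (Kdm7a) from a TSS on the distal side. On the promoter side, those of Ehmt2, Setd1b and Kmt2e, at 1270, 1046 and 1045 bp, lay in regions whose edges reach within 1000 bp.

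Each peak also carries a -log10 p in the 2 inputs of the IDR comparison, the nearest thing to a repeat measurement here. The sources at hand do not say which data made up each input. For the 129 regions at promoters of the set or assigned to it, the larger value was 1.21 times the smaller in the median. Of these, 109 lay within 1.5 times, and the median for all regions was 1.20. Peaks were kept in this list for a low IDR between the same inputs, so close values were partly fixed by that filter. The regions behind the 1.20 passed the same filter, so neither median measures how well peaks repeat. The strongest promoter had nearly equal values, 292.4 and 307.2 for Kdm4b, and so did the second intronic Hdac4 region, 117.8 and 116.0. Over 2-fold differences occurred at 3 promoter regions, at the 5' end of Setd4 (22.5 and 52.9), at Kmt2b (64.3 and 31.1) and at Nsd1 (37.4 and 18.2). An IDR over 0.01 was found at 26 of the 129, and the highest was 0.0386, at an intronic Hdac7 region with 15.8 and 28.4.

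**Figure D4:**
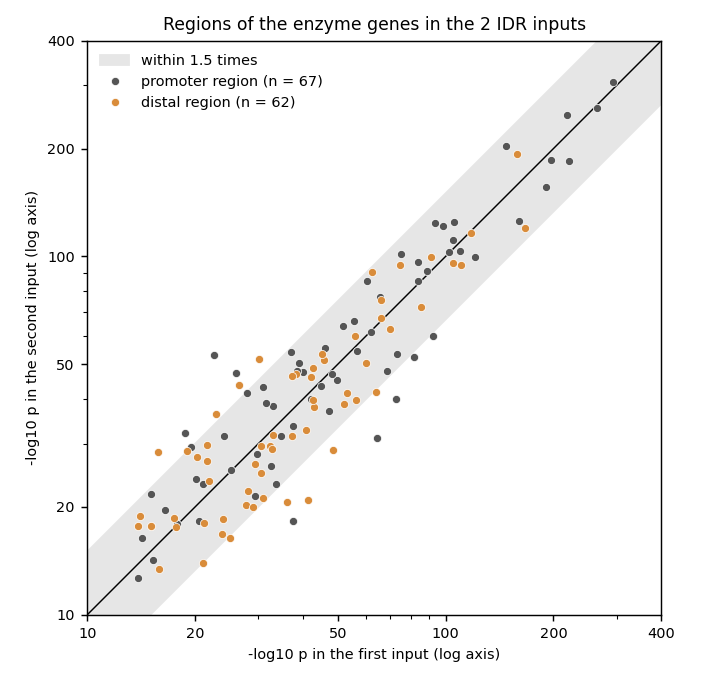
The -log10 p of each region in the first (x axis) and second (y axis) input of the IDR comparison, both on log axes, for 67 promoter regions (grey) and 62 distal regions (orange) of the enzyme genes. The line marks equal values, and 109 of the 129 points lie inside the shaded band of 1.5 times. The regions were kept for a low IDR between these inputs, so closeness to the line is partly set by that filter.

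Short words that match known factor motifs were searched within 100 bp of each summit on both strands, and matches of different words may overlap. At the strongest promoter regions, the CCAAT word bound by NF-Y was found at 21 of 52 summits (40.4%), against 35.5% of the 9519 promoter regions that are the strongest of some gene. The SP/KLF word CCCGCCC was found at 17 (32.7%, against 42.6%), the ETS word CCGGAAG at 6 (11.5%, against 19.3%) and the NRF1 word GCATGCGC at 4 (7.69%, against 4.32%). The AP-1 word TGANTCA was found at none of the 52, against 3.38%. Of 52 summits, 1 makes 1.92%, so shares from counts this small are coarse.

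Distal summits held a different mix. The AP-1 word, matched by factors that T cell activation induces, was found at 10 of 62 (16.1%, against 13.3% of all assigned distal regions), and the RUNX word TGTGGTT at 8 (12.9%, against 13.6%). The CCAAT word was found at 15 (24.2%, against 19.7%), the ETS word at 1 (1.61%, against 4.38%) and the CTCF word AGGGGGCGC at 2 (3.23%, against 1.23%). The second Hdac4 sequence above holds a RUNX and an AP-1 word within the window shown, and the Nsd1 sequence and the Kdm4b promoter each hold the E-box CACGTG. The remaining words, the YY1 word AAGATGGC, the CREB word TGACGTCA, the E-box and the ZBTB33 word CTCGCGAG, matched at most 3 summits of the set in either class. A match describes letters in a window and is not a bound site.

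Partner genes of the same complexes also mostly had promoter regions, to be read against 49.1% of all genes and 78.0% of CpG-rich genes. All 8 PRC2 partners had a promoter region, from 19.7 at Suz12, a core subunit, to 8.12 at Jarid2, an accessory one with 6 assigned regions. All 8 subunits of the COMPASS complexes that carry the H3K4 methyltransferases had one, Wdr5 at 14.4 and Cxxc1 at 18.8. Of 13 deacetylase corepressor genes, 12 of them CpG-rich, 10 had one (76.9%, near the CpG-rich share), with Tbl1xr1 holding 11 regions and Tbl1x 7 regions without a promoter region. Of 21 further enzymes, mostly sirtuins and SMYD methyltransferases, 20 had one, Phf2 being the exception. The promoter region of Smyd1 has the same signal and width as that of Cd8b1, 11.4 and 1057 bp, and no region was assigned to Smyd1.

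Set beside other chromatin enzymes, the share was similar in size. Promoter regions were found at 14 of 16 DNA methylation genes and 35 of 39 chromatin remodellers, with median signals of 18.7 and 16.0 against 15.8 in the enzyme set. Regions per 100 kb were 3.15, 2.09 and 3.36 in the same order. Chd7 had 16 regions and Chd2 12, more than Hdac4. These differences were not tested.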

How the data were processed

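ATAC-seq peak lists of activated regulatory T cells (2 technical replicates of 1 biological replicate, 1 group) were used as deposited. Per the labels' assembly field the lists are on mm10. For the aligner, peak caller, read filters, any shift of reads for the transposase and all versions, a name was not given in the sources used here. Read depth is unknown. The deposited signal value is the caller's enrichment per peak, and the deposited −log10 columns hold the caller's p-values and those of the 2 IDR inputs. The deposited −log10 of the global IDR was read as a score and not as a p-value.

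Peaks overlapping by at least 1 bp were merged. TSSs came from GENCODE M21 for chromosomes 1 to 19, X and Y. Sequences came from the RefSeq copy of GRCm38.p6, which equalled all 32851 RefSeq promoter sequences compared. Members and lists were chosen with earlier results of these data known. No test was run, since there is 1 group and no replicate error. Genes given in full were the 12 with the most assigned regions, those lacking an assigned or promoter region, the 5 strongest and 5 weakest promoters and the genes assigned the 5 strongest distal regions, and others illustrate their role. Of the marker genes, Trac and Hbb-b1 matched no protein-coding symbol. Merging and assignment were checked on simulated regions. Alternatives covered other peak lists, windows, distances, TSS sets and unmerged peaks. Python 3.11.15, numpy 2.4.6, pandas 2.3.3, scipy 1.17.1 and matplotlib 3.10.9 were used.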

Additional observations from a re-analysis of the deposited data

How the results depend on the processing

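The number of genes with a promoter region stayed between 48 (1 TSS per gene) and 53 (pseudoreplicated list, or a window of 2500 bp), and the number with an assigned region between 52 and 54. Regions assigned rose from 127 to 222 in the pseudoreplicated list and to 248 with unmerged peaks, and distal regions from 62 to 137 and 103. The median promoter signal was 15.2 with 1 TSS per gene and between 15.77 and 15.82 under the other alternatives. Hdac4 had 25 regions in the pseudoreplicated list, 18 unmerged, 5 with 1 TSS per gene, 7 within 20 kb and 9 at an IDR of 0.01 or below. A gene's count was called moved if it changed by more than 1.5 times, or to or from none, so smaller changes are left out. On that rule counts moved for 26 of 55 genes in the pseudoreplicated list, 37 unmerged and 10 at the stricter IDR. They moved for 9 with 1 TSS per gene and 8 with RefSeq TSSs, an alternative chosen after seeing the data. Hdac9 lacked a promoter region under every alternative run. No replicate could be left out, since the lists pool both libraries. No paired analysis was possible because there is 1 group. Unknown depth limits what the absence of a region shows.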
